A study of Mus musculus with 2 samples.

Results

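The regions described here are the stretches of DNA called around PHLPP1, a protein phosphatase, that lay within 1 kb of either end of an autosomal microRNA gene in mouse alveolar macrophages. The IL-4 library held 416 such regions of 225427 autosomal regions (0.185%, 95% interval 0.167 to 0.203), and the untreated library 296 of 165089 (0.179%, 0.159 to 0.201). They were counted at 1090 autosomal genes of biotype miRNA whose symbols start with Mir in the RefSeq gene table. Of these genes, 752 lay wholly inside a protein-coding gene and are called intragenic, and 338 did not and are called other. A microRNA gene with a region within 1 kb of either end is called covered.

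The assay was CUT&Tag: an antibody enters permeabilised cells and brings a transposase to its target, where the enzyme cuts and tags the DNA nearby. Wild-type alveolar macrophages, the resident macrophages of the air spaces, were taken by lavage of the airways and either given IL-4 at 20 ng/ml for 4 h or left untreated, and both were probed with an antibody against PHLPP1. Each condition was 1 library, so no test between conditions was possible, and every difference below is between these 2 libraries. Shares carry exact Clopper-Pearson 95% intervals, for counting error only. Neighbouring microRNA genes can share a region and are not independent. The sources used here do not give the number of mice, any pooling or a control antibody, so signal that does not depend on PHLPP1 cannot be told apart from signal that does.

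MicroRNAs are short RNAs cut from hairpins within longer transcripts. They pair with messenger RNAs mainly through the seed, bases 2 to 8 of the mature strand, and lower the output of those messages. An intragenic hairpin on the strand of its host is usually cut from the host's transcript, so the promoter that drives it can lie far from the hairpin. In macrophages, miR-155, miR-146, miR-21 and miR-223 are well known in responses to microbial products, and miR-378, miR-511 and miR-342 have been studied in alternatively activated macrophages, the state that IL-4 induces. IL-4 acts through the transcription factor STAT6, and PHLPP1 is best known for removing phosphate from AKT.

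RefSeq mature sequences (GRCm38.p6, the assembly behind mm10) matched 923 of the 1090 genes. The first set shows the microRNAs whose genes carried the strongest regions in both libraries, with the seed in capitals. They share no seed.
miR-7009-5p: uUGGGGUCaggggaccagagcu
miR-7009-3p: uCUUUUCCccucucccugcag
miR-484: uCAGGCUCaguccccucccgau
miR-1938: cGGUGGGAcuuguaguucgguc
miR-6236: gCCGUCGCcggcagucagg

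The second set shows microRNAs that share a seed but whose genes differed in coverage, and a pair, miR-132 and miR-212, whose neighbouring genes shared 1 region. The capitals again mark bases 2 to 8. Mature miR-29b-3p comes from both Mir29b-1 and Mir29b-2, and miR-24-3p from both Mir24-1 and Mir24-2, so 1 sequence can belong to a covered and an uncovered gene.
miR-29a-3p: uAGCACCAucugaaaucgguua
miR-29b-3p: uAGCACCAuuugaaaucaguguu
miR-29c-3p: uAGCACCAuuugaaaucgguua
miR-146a-5p: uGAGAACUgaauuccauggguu
miR-146b-5p: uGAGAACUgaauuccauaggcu
miR-132-3p: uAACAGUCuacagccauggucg
miR-212-3p: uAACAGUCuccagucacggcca
miR-27a-3p: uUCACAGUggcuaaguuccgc
miR-27b-3p: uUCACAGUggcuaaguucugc
miR-24-3p: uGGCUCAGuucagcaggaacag
miR-125a-5p: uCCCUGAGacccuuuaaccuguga
miR-125b-5p: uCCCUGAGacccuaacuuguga
miR-181a-5p: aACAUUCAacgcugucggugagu
miR-181c-5p: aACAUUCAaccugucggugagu

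Most microRNA genes had no region near them in either library. Both libraries covered 231 of the 1090 genes (21.2%, 18.8 to 23.7), the IL-4 library alone 158 (14.5%, 12.5 to 16.7) and the untreated library alone 71 (6.51%, 5.12 to 8.15), while 630 (57.8%, 54.8 to 60.8) were covered in neither. Of all autosomal bases, 9.89% lay within 1 kb of regions of both libraries, 9.23% of the IL-4 library alone and 4.50% of the untreated library alone. The share of microRNA genes in each covered class was thus above that of bases, most so in the class covered by both. The IL-4 list was also the longer one, and when it was cut to the length of the untreated list 206 genes were covered in both, 116 only by IL-4 regions and 96 only by untreated regions.

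Intragenic genes were covered in both libraries in 144 of 752 cases. The IL-4 library alone covered 113, the untreated library alone 53 and neither 442. Their covered share was 34.2% (30.8 to 37.7) in the IL-4 library and 26.2% (23.1 to 29.5) in the untreated library. Of the bases inside protein-coding genes, 11.5% lay near regions of both libraries, 11.0% near the IL-4 library alone and 4.15% near the untreated library alone. The 338 other genes were covered in both in 87 cases, in the IL-4 library alone in 45, in the untreated library alone in 18 and in neither in 188. Their covered share was 39.1% (33.8 to 44.5) in the IL-4 library and 31.1% (26.2 to 36.3) in the untreated library, and the bases outside protein-coding genes stood at 8.80% in both, 8.04% near IL-4 regions only and 4.73% near untreated regions only. The intervals of the 2 classes overlapped within each library.

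Position relative to a protein-coding gene's ends separated covered from uncovered genes more than the class did. A base has no length and a hairpin gene has a median of 81 bp, so the comparison with bases used the middle base of each gene. Within 1 kb of a protein-coding gene end, 79 of 139 microRNA genes (56.8%, 48.2 to 65.2) were covered in the IL-4 library and 65 (46.8%, 38.3 to 55.4) in the untreated library, against 45.4% and 33.6% of bases at such positions. Inside protein-coding genes but farther from an end, 198 of 648 (30.6%, 27.0 to 34.3) and 146 (22.5%, 19.4 to 25.9) were covered in the IL-4 and untreated libraries, against 21.4% and 14.8% of bases. Outside and farther from an end, 109 of 303 (36.0%, 30.6 to 41.7) and 84 (27.7%, 22.8 to 33.1) were covered, against 16.2% and 13.1% of bases. The microRNA genes exceeded the bases at each of these positions in both libraries, and the share of bases includes assembly gaps and stretches to which reads cannot be mapped.

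**Figure D1:**
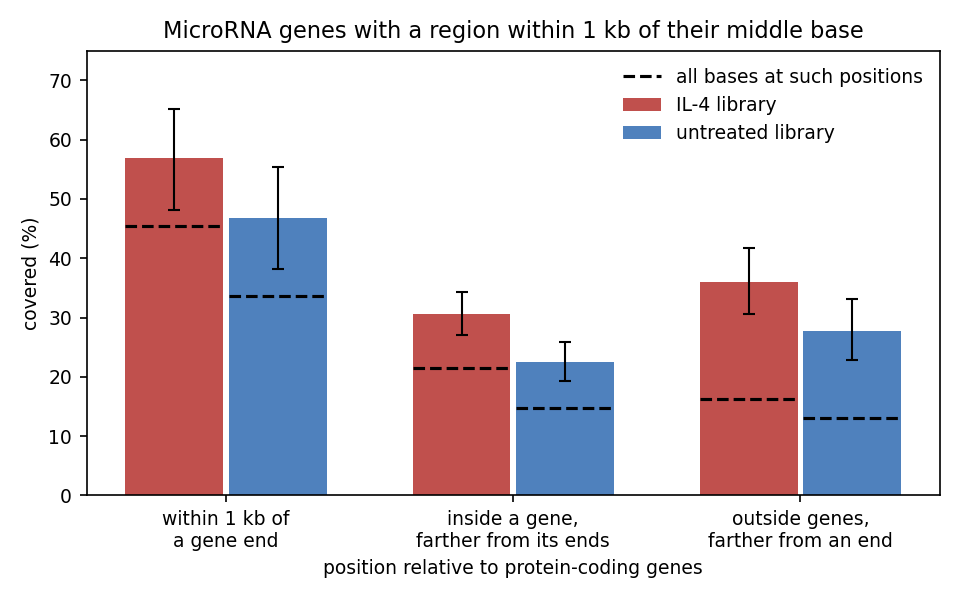
Share of microRNA genes (percent, vertical axis) with a region within 1 kb of their middle base, by position relative to protein-coding genes, for the IL-4 library (red, left) and the untreated library (blue, right); error bars are 95% Clopper-Pearson intervals and dashed lines the share of all bases at such positions. Genes near a protein-coding gene end were covered most, at 56.8% and 46.8%, and each bar stands above its dashed line.

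The regions at microRNA genes were somewhat stronger and wider than regions at large. The fold printed here is the authors' own value for each region, the summit pileup over the background of the same library. It had a median of 2.25 in the 416 IL-4 regions and 2.21 in the 296 untreated regions, against 2.19 and 2.15 over all autosomal regions of the same libraries. A fold of 3 or more was reached by 25.5% of the IL-4 regions and 20.6% of the untreated regions at microRNA genes, against 12.9% and 9.08% of all autosomal regions. The median width was 381 bp in the IL-4 library and 344 bp in the untreated library, against 327 and 300 bp over all. Position relative to gene ends was not held fixed in these comparisons, and a wider region meets a 1 kb window more easily. The part of either was not tested. The hairpin gene itself was overlapped by 142 IL-4 and 101 untreated regions, at 144 and 106 of the 1090 genes. Of autosomal bases, 3.57% and 2.40% lay in a region. A gene of many bases meets a region more easily than a single base does, so genes and bases are not compared here.

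A limit of 5 on the authors' −log10 q removed most coverage by the untreated library alone. Under it 81 genes stayed covered in both libraries, 88 only by IL-4 regions and 4 only by untreated regions, against 2.34%, 4.47% and 0.546% of autosomal bases. The 4 were Mir205, Mir206, Mir1190 and Mir6241, named after their values were seen. Each of them also had a weaker IL-4 region, as at Mir206, whose fold was 2.02 in the IL-4 library and 2.68 in the untreated library. No gene without any IL-4 region therefore passed this limit in the untreated library.

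The strongest intragenic regions described here lay within 1 kb of a RefSeq start of their host gene, though not every hairpin did. Mir7009, at chr3:36475461-36475524 on the minus strand, lies 363 bp inside Anxa5, which encodes a phosphatidylserine-binding annexin, and its region had a fold of 11.8 in the IL-4 library and 10.02 in the untreated library. Mir1938, at chr12:40222712-40222811 on the minus strand, lies 378 bp from the start of Ifrd1, a transcriptional coregulator, with folds of 9.30 and 8.31. Mir8098 lies at the start of Wdfy2, an endosomal FYVE-domain protein, and had 8.16 in the IL-4 library and 8.13 in the untreated library. All 3 hairpins were overlapped by a region in both libraries.

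Mir5619 in Nudt9, an ADP-ribose hydrolase gene, had folds of 8.54 in the IL-4 library and 5.10 in the untreated library, and its regions ended 838 and 949 bp from the hairpin, which lies 1139 bp from the nearest upstream RefSeq start of Nudt9 and 2465 bp from an end in the gene table. Mir7655 in Mllt10, a gene of a chromatin regulator, had 8.42 in the IL-4 library and 4.56 in the untreated library, and lies 2118 bp from the nearest upstream start of Mllt10 and 2686 bp from a gene end. Of these 5 genes, Mir5619 and Mir7655 differed most in fold between the libraries.

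Among the other genes, Mir484 at chr16:14159626-14159692 on the plus strand, 348 bp from an end of Marf1, had the strongest region, with a fold of 11.6 in the IL-4 library and 10.5 in the untreated library. Mir5627, 245 bp from an end of the chaperone gene Dnajb9, had 8.60 and 5.77. Mir688, 745 bp from an end of Atp5g2, a gene of the mitochondrial ATP synthase, had 7.71 in the IL-4 library and 4.02 in the untreated library. Mir1945, 43 bp from an end of the translation termination factor gene Gspt1, had 6.52 and 3.89. Mir6236 stood apart from these in position and direction: it lies 18711 bp from the nearest protein-coding gene end, that of Cspg5, and its fold was 9.31 in the IL-4 library and 10.1 in the untreated library. Its recovered pileup was still higher in the IL-4 library, with 174 fragments against 152.

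Over all 231 genes covered in both, the fold of the strongest region was higher in the IL-4 library at 167 and lower at 64. A fold of 5 or more was reached by 39 genes in the IL-4 library and 15 in the untreated library, and 26 of the 39 lay within 1 kb of a protein-coding gene end. These counts were not made over all overlapping autosomal regions, so they are not read as particular to microRNA genes. Over all autosomal regions the median fold was 2.19 in the IL-4 library and 2.15 in the untreated library. At 216 of the 231 genes a region of one library overlapped a region of the other. The intragenic genes covered in both had a median fold of 2.85 in the IL-4 library and 2.30 in the untreated library, and the others 2.51 and 2.35.

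**Figure D2:**
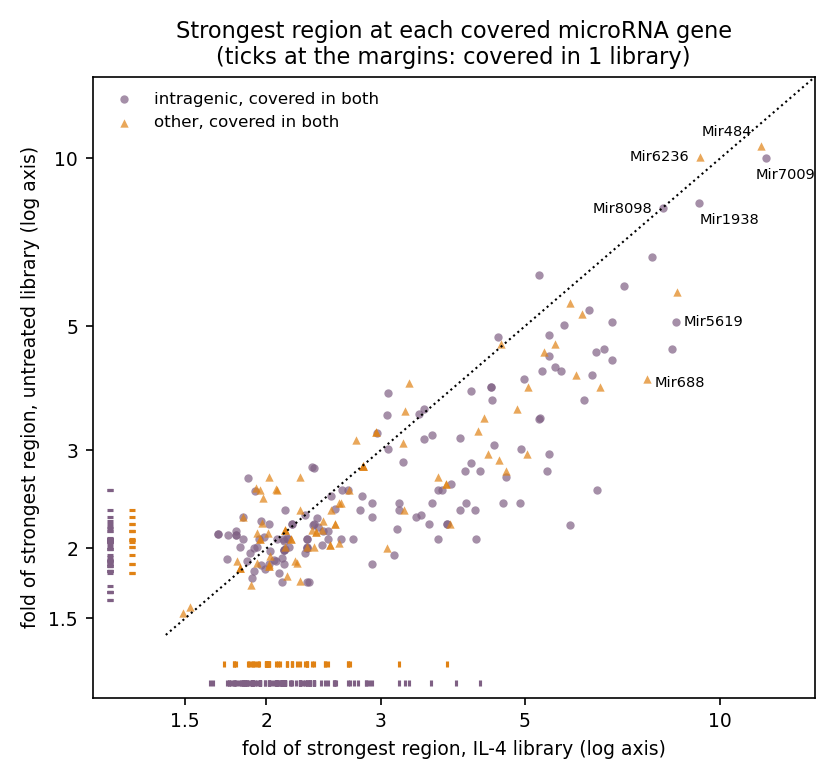
Fold of the strongest region at each covered microRNA gene in the IL-4 library (horizontal, log axis) and the untreated library (vertical, log axis), for intragenic genes (circles) and others (triangles), with equality dotted; ticks at the margins are genes covered in 1 library. Of 231 genes covered in both, 167 had the higher fold in the IL-4 library, and the genes covered in 1 library reached 4.27 in the IL-4 library and 2.55 in the untreated library. The count of higher folds was not made for regions elsewhere.

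Fold and p jointly return a region's pileup, the number of fragments over the summit. At 230 genes covered in both libraries the pileup of the strongest region was a median of 1.45 times as high in the IL-4 library as in the untreated library (interquartile range 1.27 to 1.74). Over 105215 overlapping pairs of autosomal regions the median was 1.27. A ratio of at least 1.5 was found at 111 of the 230 genes (48.3%), against 26.1% of the overlapping autosomal pairs. The ratio was higher at stronger regions, both at microRNA genes and over all autosomal pairs. It was 1.64 at the 58 microRNA genes whose overlapping untreated region had a fold of 3 or more and 1.39 at the 145 below. Over all autosomal pairs it was 1.46 and 1.25. These ratios are not scaled for depth. The constant background, which grows with depth, was 15.9 fragments in the IL-4 library and 13.9 in the untreated library, and its part in the ratio was not tested.

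Genes covered in the IL-4 library alone carried weaker regions than those covered in both. Their median fold in that library was 2.11 for intragenic genes and 2.10 for the others. Mir6541 in Wdfy2 had a fold of 4.27 and a pileup of 71 fragments in the IL-4 library, and the nearest untreated region lay 6796 bp away. Mir6993 in Fads1, a fatty acid desaturase gene, had 3.32, with the nearest untreated region at 8328 bp. Mir671 in Chpf2, a gene of chondroitin synthesis, had 3.27, with an untreated region at 1279 bp. Mir686 in Psmb5, a proteasome subunit gene, had 3.91 and Mir7658 in Klhl17, an actin-binding kelch protein gene, had 3.59, but untreated regions lay only 1025 and 1006 bp from these hairpins.

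Of the other genes in this class, Mir6361 had a fold of 3.79 and lay 23070 bp from the nearest untreated region. Mir5103 had 3.20, with an untreated region at 5359 bp. Mir146b had 2.69, and Mir29b-2 and Mir29c shared 1 region with a fold of 2.67. Mir196a-1, 6065 bp from an end of Hoxb9, had 2.49. The first of these thus stood farthest from any untreated region.

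Coverage by the untreated library alone was weaker still. Its intragenic genes of highest fold were Mir32 in Tmem245 and Mir681 in Cdkl1 at 2.55 each, Mir3067 in Smoc1 at 2.35, Mir1948 in Ttc39c at 2.28 and Mir433 in Rtl1 at 2.24. Its highest other genes were Mir145b at 2.35, Mir195b at 2.28, Mir7094-2 and Mir7680 at 2.21, and Mir181c and Mir181d, which shared a region with a fold of 2.15. Mir3067 and Mir433 had an IL-4 region 1193 and 1092 bp away, so a slightly wider window would have put them in the class covered by both.

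Some of these calls turned on the 1 kb limit. Of the 158 genes covered in the IL-4 library alone, 37 had an untreated region within 2 kb and 91 within 5 kb. Of the 71 covered in the untreated library alone, 27 had an IL-4 region within 2 kb and 55 within 5 kb. The shares within 5 kb were 57.6% and 77.5%. Of all intragenic and other genes, 60.8% and 65.4% had an untreated region within 5 kb, and 74.7% and 73.1% an IL-4 region. Those shares include genes with a region within 1 kb. The counts within 5 kb were thus near what microRNA genes at large showed. The IL-4 regions just inside the limit lay 999 bp from Mir1967, 972 bp from Mir7684 and 966 bp from Mir7658, with folds of 2.91, 1.99 and 3.59. Those just outside lay 1010 bp from Mir7651, 1017 bp from Mir1949 and 1019 bp from Mir298, with folds of 3.32, 2.67 and 2.09. The untreated regions just inside lay 998 bp from Mir125a and from Mir6982 and 991 bp from Mir92b, with folds of 1.99, 1.84 and 2.24, and those just outside 1006 bp from Mir7658, 1009 bp from Mir1967 and 1011 bp from Mir7685, with folds of 2.35, 2.41 and 1.94. Mir7658 and Mir1967 were covered in the IL-4 library alone only by this limit.

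Of 30 autosomal microRNA genes chosen for known roles in immune cells, 5 were covered in both libraries, 3 in the IL-4 library alone, none in the untreated library alone and 22 in neither. The IL-4 library thus covered 8 (26.7%) and the untreated library 5 (16.7%), against 35.7% and 27.7% of all 1090 genes. With a −log10 q of at least 5 the order turned. The IL-4 library then covered 7 of the 30 and the untreated library 3, against lower shares of all 1090 genes, 15.5% and 7.80%. Mir23a, Mir27a and Mir24-2, a cluster at chr8:84208518-84208921 on the plus strand, shared a region with a fold of 2.81 in each library, with pileups of 82 fragments in the IL-4 library and 48 in the untreated library. Mir142, the gene of a microRNA abundant in blood cells, had folds of 2.51 in the IL-4 library and 2.03 in the untreated library, and pileups of 66 and 37. Mir125a, in Spaca6, had 2.13 and 1.99.

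The 3 immune genes covered in the IL-4 library alone were Mir146b, Mir132 and Mir212. Mir146b, at chr19:46342762-46342870 on the plus strand, had a region with a fold of 2.69 and a pileup of 63 fragments starting 905 bp from the hairpin, and the nearest untreated region lay at 1490 bp. Mir132 and Mir212, at chr11:75173388-75173747 on the plus strand, shared a region with a fold of 2.46 and 42 fragments that overlapped the Mir212 hairpin, and untreated regions lay 2867 and 2573 bp away. Mir146, the gene of miR-146a with the same seed as miR-146b, was covered in neither library, with regions at 5641 bp in the IL-4 library and 4914 bp in the untreated library.

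Mir155 and Mir21a, genes of well-known inflammatory microRNAs, had no region within 1 kb in either library. The nearest to Mir155 lay 5183 bp away in the IL-4 library and 2001 bp in the untreated library, and the nearest to Mir21a 2325 and 2588 bp. The nearest regions to Mir21a, which need not be at the same site, had folds of 2.13 in the IL-4 library and 4.76 in the untreated library. The 6 hairpins of the Mir17 to Mir92-1 cluster, known for driving cell proliferation, were uncovered as well, but a region lay 1068 bp from Mir17 in the IL-4 library and 1031 bp in the untreated library. Both were just past the limit.

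Of 9 autosomal genes of microRNAs studied in IL-4-activated macrophages, 4 were covered in both libraries, 1 only by an IL-4 region and 4 in neither. The covered shares were 55.6% in the IL-4 library and 44.4% in the untreated library, against 35.7% and 27.7% of all 1090 genes, and rest on 9 genes, some of which share a region. With a −log10 q of at least 5, 2 of the 9 were covered in the IL-4 library and 0 in the untreated library. Mir378a, in the coactivator gene Ppargc1b, had a fold of 3.18 and a pileup of 79 fragments in the IL-4 library, against 2.17 and 38 in the untreated library. Mir342, in Evl, had 2.31 in the IL-4 library and 2.01 in the untreated library. Mirlet7e and Mir99b shared the Spaca6 region with Mir125a, at 2.13 and 1.99. Mir365-1 had 2.29 in the IL-4 library, with an untreated region at 1522 bp. Mir511, inside the mannose receptor gene Mrc1, had no region within 10498 bp in the IL-4 library or 10481 bp in the untreated library, and Mir193b, Mirlet7c-1 and Mir99a were also covered in neither.

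**Figure D3:**
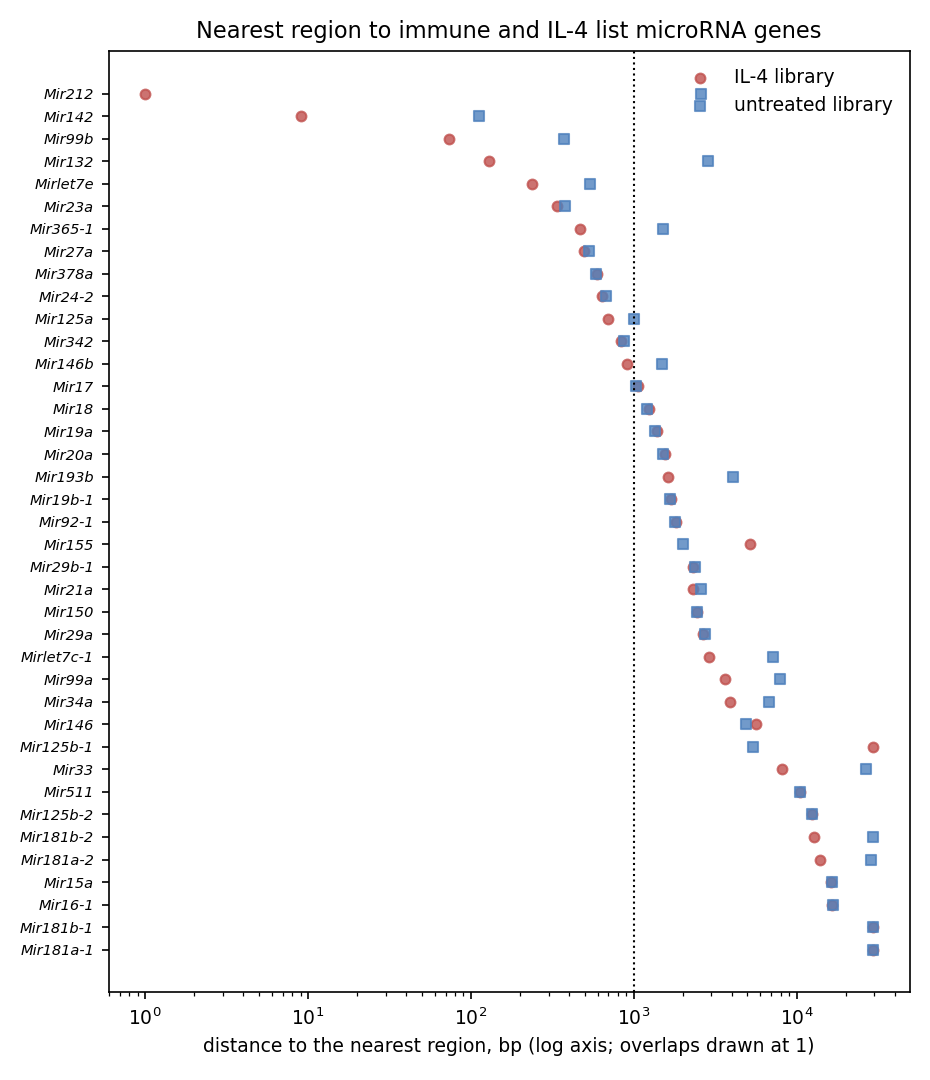
Distance from each microRNA gene of the immune and IL-4 lists to the nearest region (bp, log axis) in the IL-4 library (red circles) and the untreated library (blue squares), with the 1 kb limit dotted. Mir17 lies just past the limit at 1068 and 1031 bp, and Mir146b has its IL-4 region at 905 bp and its untreated region at 1490 bp.

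MicroRNA genes known from other tissues were covered at shares on both sides of the 35.7% (IL-4) and 27.7% (untreated) of all 1090 genes. In the epithelial list, 4 of 16 were covered in both libraries and 3 in the IL-4 library alone (Mir141, Mir200c and Mir34c), which is 43.8% in the IL-4 library and 25% in the untreated library. Mir449c, a microRNA of ciliated cells, was overlapped by an IL-4 region with a fold of 3.68. Its untreated region, with a fold of 2.08, lay at a different site, 685 bp from the hairpin. An IL-4 region 680 bp from the hairpin, on the same side, had a fold of 2.61. In the list for endothelium and smooth muscle, 5 of 7 were covered in both and 1, Mir145b, in the untreated library alone (71.4% and 85.7% in the IL-4 and untreated libraries). In the muscle list, 4 of 9 were covered in both and 2 in the untreated library alone (44.4% and 66.7%). In the neuronal list 3 of 15 were covered in both, with 1 more only by an IL-4 region (26.7% and 20%). All 13 early embryonic genes and the liver gene Mir122 were covered in neither. With a −log10 q of at least 5, 15.5% and 7.80% of all 1090 genes were covered in the IL-4 and untreated libraries. The list for endothelium and smooth muscle then had 0 covered genes in either library. The muscle list had 0 in the IL-4 library and 1 in the untreated library, the epithelial list 2 and 1, and the neuronal list 1 and 0. These lists are short and neighbouring genes share regions, and a region near a microRNA gene is no measure of its expression.

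Regions at cell type markers did not tell the cells apart. Of 12 alveolar macrophage marker genes, 11 had a region within 1 kb of a gene end in the IL-4 library and 10 in the untreated library, while 73.3% and 60.1% of all autosomal protein-coding genes had one. Markers of other cells that lavage fluid can hold were covered as well, with 3 and 2 of 5 lymphocyte genes, 4 and 2 of 4 epithelial genes and 3 and 1 of 3 granulocyte genes in the IL-4 and untreated libraries. The label of the cells could therefore not be checked from these regions, and the part of other cells in the results was not tested.

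**Figure D4:**
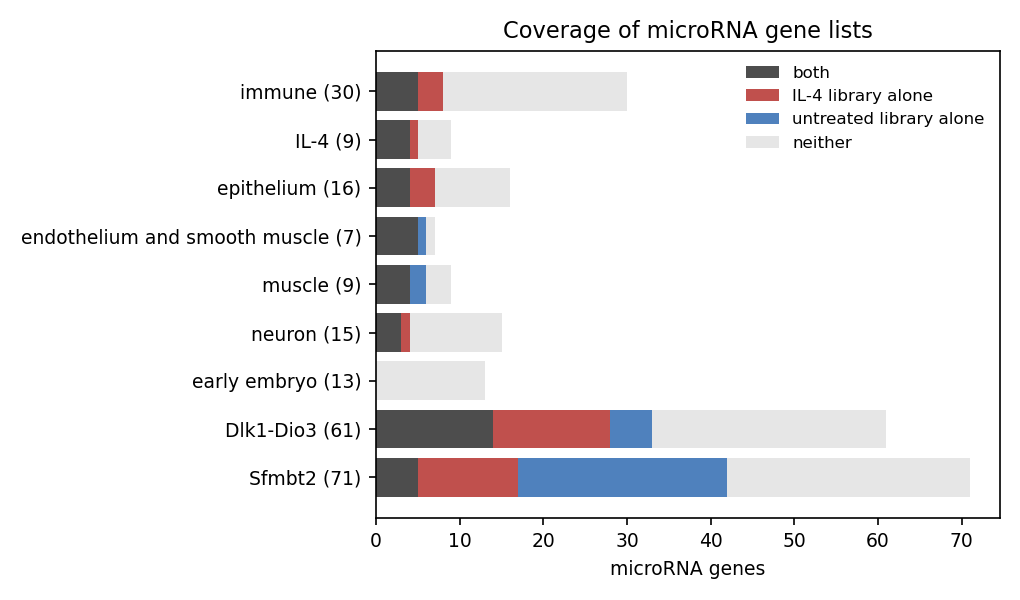
Number of microRNA genes in each list (horizontal axis; list size in brackets) covered in both libraries (dark grey), the IL-4 library alone (red), the untreated library alone (blue) or neither (light grey). The early embryonic list has no covered gene, and the Sfmbt2 list holds 25 of the 71 genes covered in the untreated library alone.

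Neighbouring hairpins weighed heavily in the counts. Joining microRNA genes less than 10 kb apart gave 858 units, of which 81 were clusters holding 313 genes. Every gene was covered in 22 clusters in the IL-4 library and 21 in the untreated library, and 35 clusters had no covered gene. The largest cluster, inside the imprinted gene Sfmbt2, held 71 hairpins in chr2:10466663-10518279. Unlike the other genes as a whole, it had more genes covered in the untreated library: 17 of its genes were covered in the IL-4 library and 30 in the untreated library. These came from 6 IL-4 and 11 untreated regions with folds of 1.90 to 2.37 and 1.82 to 2.08, none of which reached a −log10 q of 5. Of the bases of Sfmbt2, 32.1% and 35.0% lay near a region of the IL-4 and untreated libraries. Without this cluster the untreated library alone covered 46 genes, not 71.

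The imprinted stretch between Dlk1 and Dio3 held 61 microRNA genes over 734 kb. The IL-4 library covered 28 and the untreated library 19, with 14 covered in both, and 43.1% and 34.0% of the bases of that stretch lay near a region. The shares of genes were thus close to the shares of bases. Its strongest region was at Mir770, with a fold of 3.064 in the IL-4 library and 2.005 in the untreated library.

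Of 49 seed families with 3 or more genes, 38 held both covered and uncovered genes, 10 held only uncovered genes and 1 held no uncovered gene. Of all 1090 genes, 460 (42.2%) were covered in at least 1 library, and nothing about the seed is read from these counts. The family with no uncovered gene, with the seed GGGCUGG, held Mir7648 (folds of 5.75 in the IL-4 library and 5.03 in the untreated library), Mir762 (5.42 and 2.75) and Mir6940, covered in the IL-4 library alone at 1.78. The seed GAGGUAG, that of the let-7 family, whose members restrain proliferation, was matched to 11 genes. Of these, 4 were covered in both, 1 in the untreated library alone and 6 in neither, against 21.2%, 6.51% and 57.8% of all genes in these classes. The gene covered in the untreated library alone was Mir1961, which shares the seed but is not named as a let-7 gene. Mirlet7a-2, uncovered in both libraries, was not among the 11. Mirlet7i was the strongest, with 3.26 in the IL-4 library and 2.35 in the untreated library.

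In the miR-29 family, known for repressing collagen genes, Mir29b-2 and Mir29c were covered in the IL-4 library alone and Mir29a and Mir29b-1 in neither. In the miR-181 family, known in lymphocyte development, Mir181c and Mir181d were covered in the untreated library alone and the other 4 genes in neither. Mir23b, Mir27b and Mir24-1 in Aopep, the second copy of the covered Mir23a cluster, had no region within 5801 bp in the IL-4 library or 6070 bp in the untreated library. The pairs of genes that encode miR-24-3p and miR-29b-3p, printed above, thus each held a covered and an uncovered gene.

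For hairpins cut from a longer transcript, the start of that transcript was covered more often than the hairpin. Of 447 microRNA genes on the strand of a protein-coding host whose start was in the RefSeq table, the host's nearest upstream start was covered at 371 (83.0%, 79.2 to 86.4) in the IL-4 library and 310 (69.4%, 64.8 to 73.6) in the untreated library. For comparison, only the first start was taken for each of 16457 protein-coding genes, and 67.1% and 55.9% of these were covered. That is a different choice of start from the nearest upstream one used for hosts, so like was not compared with like. Of the hairpins themselves 154 and 101 were covered. A host start covered in both libraries was found for 192 of the 279 hairpins covered in neither. The same held for 69 of the 87 covered in both, 36 of the 67 covered in the IL-4 library alone and 8 of the 14 covered in the untreated library alone. Covered host starts were thus not particular to uncovered hairpins. Starts of lncRNA hosts were covered for 42 of 88 hairpins (47.7%) in the IL-4 library and 29 (33.0%) in the untreated library. The first starts of all lncRNA genes, again a different choice of start, were covered at 42.5% and 30.8%. Where the host start lay within 1 kb, 38 and 34 of 41 hairpins were covered in the IL-4 and untreated libraries, and beyond that 116 and 67 of 406. A hairpin that near a start shares much of its window with the start, so the rule of coverage itself sets part of this contrast.

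Mir33 lies in the sterol regulator gene Srebf2 and is known for lowering cholesterol export. Its hairpin was uncovered, while the Srebf2 start had folds of 9.57 in the IL-4 library and 5.90 in the untreated library. Mir15a and Mir16-1 were uncovered, and the start of their host Dleu2 had 6.01 and 5.30. Mir511 was uncovered, and the Mrc1 start had 2.79 in the IL-4 library and 2.21 in the untreated library. Mir155hg, the host transcript of Mir155, had no region within 1 kb of its start in either library. Vmp1, the host of Mir21a, had none at the start nearest upstream of the hairpin. Its starts farther upstream had 3.02 in the IL-4 library and 2.82 in the untreated library.

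The promoters of 3 lncRNA hosts are printed because their starts were covered while a hairpin of each was not. Mir22hg, the host of Mir22, had a fold of 7.31 in the IL-4 library and 6.82 in the untreated library at its start, with pileups of 220 and 138 fragments, and Mir22 lies 2177 bp on. Mir100hg, the host of Mir125b-1, had a region at 1 of its starts in the IL-4 library alone, with a fold of 4.27 and 71 fragments, and the nearest untreated region lay 2151 bp away. Mir125b-1 lies 107033 bp on and was uncovered. Gm32817, the host of Mir193b and Mir365-1, had a region at its first start in the IL-4 library alone, with a fold of 2.06 and 47 fragments, and the nearest untreated region lay 2476 bp away. Mir193b lies 1571 bp on and was uncovered, and Mir365-1 lies 5888 bp on and was covered in the IL-4 library alone. The sequences are from RefSeq (GRCm38.p6), plus strand, 250 bases before to 50 bases after the start, chr11:75461289-75461588, chr9:41474643-41474942 and chr16:13447702-13448001, and capitals mark the GC box, GGGCGG or its complement CCGCCC.
Mir22hg: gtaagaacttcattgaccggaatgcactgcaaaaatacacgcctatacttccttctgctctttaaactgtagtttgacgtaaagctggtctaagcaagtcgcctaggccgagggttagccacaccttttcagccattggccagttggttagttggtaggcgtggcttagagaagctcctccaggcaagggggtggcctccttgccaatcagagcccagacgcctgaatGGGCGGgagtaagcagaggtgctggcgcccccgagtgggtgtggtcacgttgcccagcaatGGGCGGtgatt
Mir100hg: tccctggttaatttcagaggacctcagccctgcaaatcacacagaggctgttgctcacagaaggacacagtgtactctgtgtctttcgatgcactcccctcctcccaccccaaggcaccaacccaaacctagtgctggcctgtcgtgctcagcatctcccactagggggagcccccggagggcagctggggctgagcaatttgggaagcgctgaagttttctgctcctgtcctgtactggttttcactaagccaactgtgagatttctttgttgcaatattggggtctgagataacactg
Gm32817: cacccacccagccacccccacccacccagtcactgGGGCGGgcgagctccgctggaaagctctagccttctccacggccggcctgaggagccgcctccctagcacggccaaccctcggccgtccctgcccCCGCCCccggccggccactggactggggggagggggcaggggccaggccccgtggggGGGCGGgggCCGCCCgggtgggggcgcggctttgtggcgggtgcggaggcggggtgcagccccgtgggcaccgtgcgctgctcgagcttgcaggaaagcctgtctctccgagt

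The Mir22hg window held 12 CpG pairs and 2 GC boxes, the Mir100hg window 4 CpG pairs and none, and the Gm32817 window 26 CpG pairs and 4 GC boxes; the median of 31365 autosomal promoters was 7 CpG pairs. Both strands were searched for GGGCGG (found in 36.0% of those promoters), the E-box CACGTG (7.14%), the AP-1 motif TGANTCA (7.85%) and the PU.1 core GAGGAA (28.2%). The last 3 were in none of these windows. A match describes the letters in the window and not a bound site.

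Summits lay on both sides of the hairpin. Among regions at genes with a known strand, the summit was upstream of the gene's middle at 205 of 375 (95% interval 49.5 to 59.8%) in the IL-4 library and 147 of 254 (51.5 to 64.0%) in the untreated library. Among those with a fold of 3 or more it was upstream at 66 of 95 in the IL-4 library and 41 of 55 in the untreated library. The median distance from hairpin to summit was 472 bp in the IL-4 library and 422 bp in the untreated library.

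**Figure D5:**
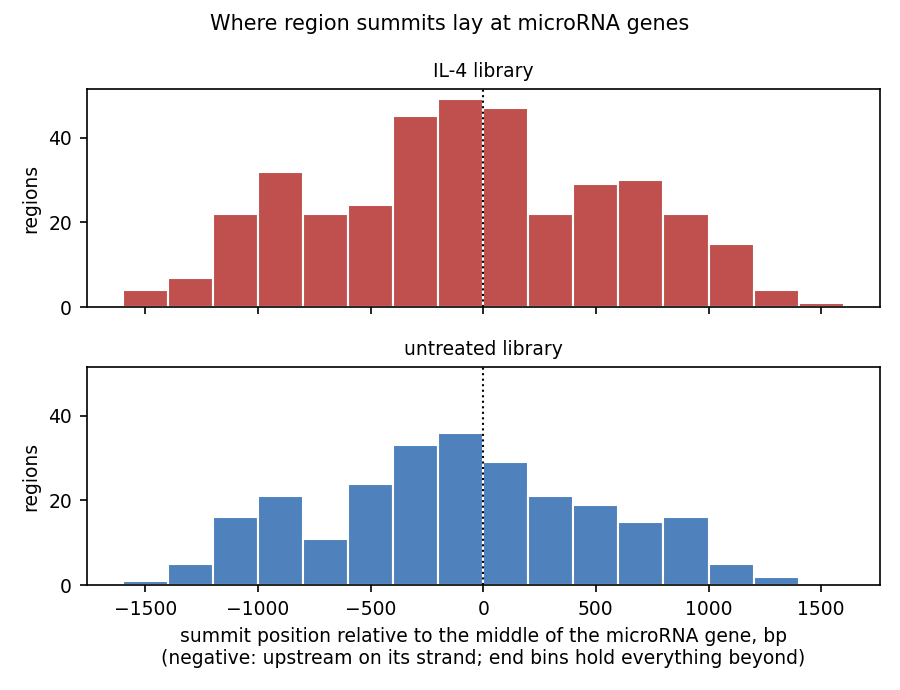
Number of regions (vertical axis) by the position of their summit relative to the middle of the microRNA gene along its strand (bp, negative upstream) in the IL-4 library (red, top) and the untreated library (blue, bottom). Summits lie on both sides, with 205 of 375 upstream in the IL-4 library and 147 of 254 in the untreated library.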

How the data were processed

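Both CUT&Tag libraries came with 1 deposited list of regions each. Bowtie 0.12.8, MACS2 2.2.7.1, DiffBind and mm10 are named per the submitters' processing notes; roles, settings, controls and read depth are not given in the sources used here. Each deposited fold is a ratio of summit pileup to background, each with 1 added, not scaled between libraries. The deposited −log10 p and −log10 q refer to the same background; the authors' score restates the −log10 p and was not used further, and the deposited summit offset counts bp from the region's start. Pileups recovered from fold and p were whole within 0.05 for 100% of regions, leaving out 106 IL-4 and 100 untreated regions of very small p.

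Genes, strands and sequences came from RefSeq tables on GRCm38.p6. A gene was covered by a region within 1 kb of either end, and compared with all autosomal bases. The code was tested on simulated data. The named genes are the immune and IL-4 lists, the 5 of highest fold in each class and coverage status, the 3 on each side of the 1 kb limit, and seed families of 3 or more genes; other genes were named after their values were seen. Mir221, Mir222 and Mir223 were not matched on an autosome, nor Mir292a by that symbol. Members and lists were chosen with earlier results of these data known. Alternatives changed the window, limits, list length, overlap, clusters and classes. Python 3.11.15, numpy 2.4.6, pandas 2.3.3, scipy 1.17.1 and matplotlib 3.10.9 were used.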

Additional observations from a re-analysis of the deposited data

Results flagged for a closer look

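Autosomal genes of biotype miRNA whose symbols start with Gm were outside the comparisons above. Of 46 such genes, 19 (41.3%, 95% interval 27.0 to 56.8) were covered in the IL-4 library and 11 (23.9%, 12.6 to 38.8) in the untreated library, against 35.7% and 27.7% of the 1090 genes above. The share was thus higher in the IL-4 library and lower in the untreated library than among those genes, and both intervals hold the share of those genes. No control library was analysed here.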

How the results depend on the processing

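Of 96 values recomputed under 14 alternatives, 55 stayed close and 41 moved; a narrower window or stricter limit counts fewer genes by construction, and the cause of the moved pileup ratios was not tested. With a 5 kb window, 636 genes were covered in both libraries and 42 in the untreated library alone, and the covered shares in the IL-4 and untreated libraries were 74.7% and 60.8% (intragenic) and 73.1% and 65.4% (other); with 500 bp they were 26.7% and 18.8%, and 30.5% and 22.2%. Counting only regions that overlap the gene gave 70 in both, 74 for IL-4 alone and 36 for untreated alone, with shares of 12.8% and 8.91%, and 14.2% and 11.5%. A −log10 q of at least 5 gave 81, 88 and 4 genes, shares of 14.6% and 6.65%, and 17.5% and 10.4%, and a median pileup ratio of 1.69. A fold of at least 3 gave 57, 47 and 4 genes, shares of 9.84% and 5.32%, and 8.88% and 6.21%, and a ratio of 1.65. Requiring regions of both libraries to overlap by 50% left 150 in both, with a ratio of 1.56. Equal list lengths lowered the IL-4 shares to 28.2% and 32.5%. Leaving out genes near a protein-coding gene end gave an intragenic IL-4 share of 30.7% and a ratio of 1.36. Counting clusters once left 35 clusters or single genes in the untreated library alone. Leaving out the Sfmbt2 genes, an alternative chosen after seeing the data, left 46 genes in that class. No paired analysis was possible because each group held 1 library, and for the same reason no library could be left out.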
